A study of Mus musculus with 6 samples.

Results

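The phase II conjugating enzymes are the 3 gene classes whose proteins attach glucuronic acid (UDP-glucuronosyltransferases, UGT), glutathione (glutathione S-transferases, GST) or sulfate (sulfotransferases, SULT) to drugs, hormones, bile acids, bilirubin and reactive lipid products. Members were chosen by symbol (Ugt1 to Ugt3, Gsta, Gstm, Gstp, Gstt, Gstk, Gsto, Mgst and Sult genes) and by a total of at least 20 counts over the libraries. This left 49 of the 67 matching symbols among the 21956 genes of the table: 17 UGT, 21 GST and 11 SULT genes. The other 18 matching symbols had fewer counts, and 7 of them had none in any library. All 49 members are annotated as protein-coding.

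The libraries were polyA RNA-seq of liver from 6 mice. The 3 knockout mice carried floxed Sting alleles with Cdh5-Cre, an endothelial Cre driver, so that Sting is deleted in endothelial cells. The 3 control mice were littermates with the same floxed alleles and no Cre. From 8 weeks of age, all of the animals received CDAHFD, a high-fat diet that lacks choline and supplies L-amino acids in defined amounts, over 10 weeks, so the comparison concerns livers with diet-induced steatohepatitis and includes no liver on normal chow. Because Cre was carried only by the knockout mice, an effect of Cre and one of the deletion cannot be told apart.

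Conjugation makes a compound more water-soluble, and the product leaves the hepatocyte into bile or blood through export pumps. UGT enzymes sit in the membrane of the endoplasmic reticulum and take glucuronic acid from UDP-glucuronic acid. Most GST enzymes and the SULT enzymes of this kind are cytosolic, the former using glutathione and the latter the sulfate donor PAPS, and the microsomal MGST enzymes are membrane proteins. Hepatocytes are the main site of these reactions in the liver, and many of the genes differ between male and female mice and between the zones of the lobule. The comparison asks whether their transcripts differ in the liver when Sting is removed from endothelial cells.

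Library totals ranged from 16704663 to 21025466 counts. The labels name liver as the tissue and liver sinusoidal endothelial cells as the cell type, but the profile was that of whole tissue. The hepatocyte product albumin (Alb) alone took 6.91% to 10.9% of the counts of a library. On plain library totals, the 7 endothelial markers, all of them read, summed to 326 to 405 CPM against 84300 to 130000 CPM for 6 hepatocyte markers. In such tissue, fewer cells of a type and less RNA per cell cannot be told apart. The targeted gene Sting1 stood at 5.64, 6.54 and 4.40 CPM (counts relative to the TMM-scaled library size) in knockout replicates 1 to 3 and at 12.1, 17.4 and 11.0 CPM in control replicates 1 to 3, with no overlap. Its log2 fold change was -1.29 (SE 0.23; adjusted p = 0.357 in edgeR and 0.00151 in DESeq2). Among the libraries control replicate 2 differed most from the rest, with a TMM factor of 1.26 against 0.922 to 1.01 and the lowest share of Alb. It also had the largest sum of cholangiocyte markers, at 1600 CPM against 238 to 842 CPM. Sums of marker lists, here and below, are relative to the plain library total, without TMM scaling. Values without control replicate 2 are given beside the results that moved most when it was left out.

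Several members are near-copies of each other, and the sequences below show how little separates them for short reads. The alpha-class enzymes Gsta1 and Gsta2 share 97.6% of their aligned coding bases, the pi-class enzymes Gstp1 and Gstp2 98.1%, and the phenol glucuronidating enzymes Ugt1a6a and Ugt1a6b 98.4%. For each pair, the ungapped stretch of 90 coding bases with the most differing positions is printed from GENCODE M21 on GRCm38, 5′ to 3′ on the coding strand. Bases that differ within the pair are in capitals. The stretch covers coding bases 419 to 508 for Gsta1 and Gsta2, 1 to 90 for Gstp1 and Gstp2, and 271 to 360 for Ugt1a6a and Ugt1a6b.
Gsta1: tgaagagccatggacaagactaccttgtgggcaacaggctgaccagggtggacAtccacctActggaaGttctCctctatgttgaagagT
Gsta2: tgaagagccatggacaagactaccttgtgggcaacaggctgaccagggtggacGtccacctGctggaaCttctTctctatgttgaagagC
Gstp1: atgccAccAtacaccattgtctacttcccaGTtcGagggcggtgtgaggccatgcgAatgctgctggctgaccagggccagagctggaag
Gstp2: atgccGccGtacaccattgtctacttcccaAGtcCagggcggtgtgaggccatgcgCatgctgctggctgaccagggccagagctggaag
Ugt1a6a: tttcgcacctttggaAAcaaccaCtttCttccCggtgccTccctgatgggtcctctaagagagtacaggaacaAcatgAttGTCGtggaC
Ugt1a6b: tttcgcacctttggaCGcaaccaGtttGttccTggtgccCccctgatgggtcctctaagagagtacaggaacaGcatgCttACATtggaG
In these windows 5 bases differ between the Gsta genes, 6 between the Gstp genes and 13 between the Ugt1a6 genes. The whole coding alignments hold 13, 12 and 26 mismatched bases, so the rest of each pair is more alike than the stretch printed. The estimated counts of each pair depend on how the counting divided reads that match both genes.

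The extent of this was measured as the share of 50-base windows of a gene's transcripts that also occur in another matching gene. Among the 49 members, 25 shared at least 1 window and 24 shared none. Values above 25% were found in 15 members, which include the Ugt1a genes (79.8% for Ugt1a6b), Gsta1 (53.9%), Gsta2 (49.3%), Gstp2 (49.1%), Ugt2b5 (41.7%), Ugt2b38 (37.4%) and Gstp1 (33.7%). The Ugt1a genes use separate first exons spliced to the same set of later exons, so that the bilirubin-conjugating Ugt1a1 shared 58.2% of its windows without being a copy of any other. For the sharing members, a difference between 2 genes of a family is uncertain. Summed values are given for the Ugt1a locus, Gsta1 with Gsta2, Gstp1 with Gstp2, Ugt2b5 with Ugt2b37 and Ugt2b38, and the Ugt3a genes. No sum was made of Sult2a1 with Sult2a2, or of Ugt1a6a with Ugt1a6b apart from their locus.

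**Figure D1:**
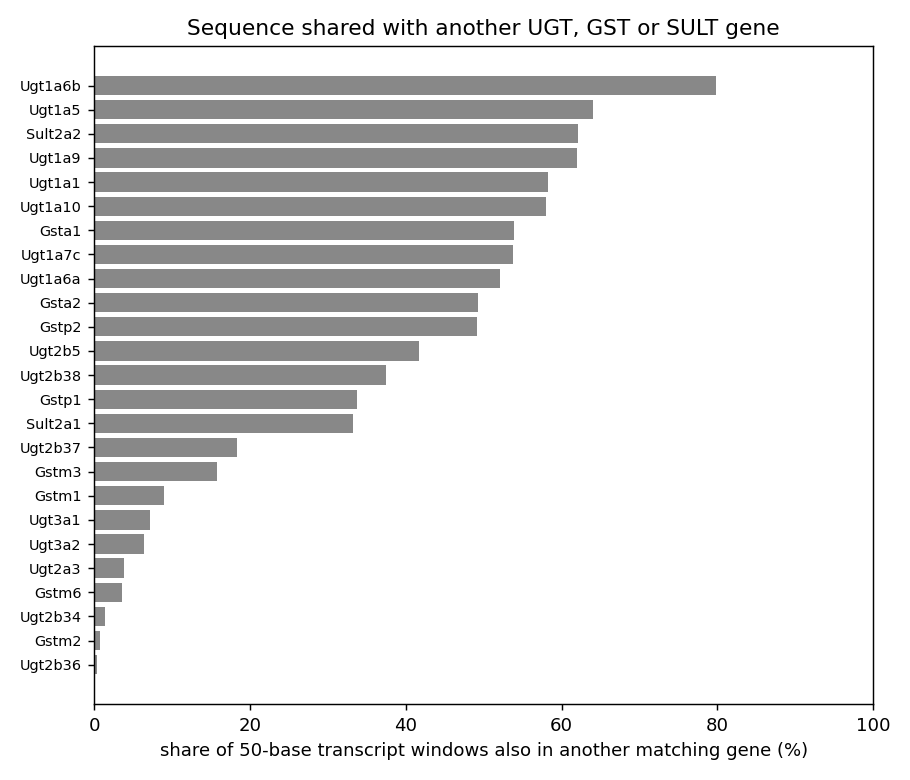
Horizontal bars give, for each of the 25 members with any shared window, the percentage of its 50-base transcript windows that also occur in another matching gene. The Ugt1a genes, Sult2a2, Gsta1, Gsta2 and Gstp2 are at the top, and the other 24 members share none.

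The levels of the members spanned a wide range. In TPM, a transcript level relative to gene length and library total, the mean over the 6 libraries ran from 0.26 to 4058. Mgst1, a membrane-bound glutathione transferase of the endoplasmic reticulum and mitochondria, alone made 30.3% of the summed member TPM. With Gstm1, Gsta3 and Gstp1, the leading cytosolic genes of the mu, alpha and pi classes, it made 60.4%. The leading UGT gene was Ugt2b5 at 515.7 TPM and the leading SULT gene Sult1a1, a phenol sulfotransferase, at 515.1 TPM, followed among UGT genes by Ugt2b36 at 446.3 TPM and Ugt1a1 at 400.4 TPM.

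Together the members took 0.898%, 1.01% and 0.961% of the counts of the knockout libraries (replicates 1 to 3) and 1.00%, 0.756% and 1.05% of those of the control libraries. Their summed CPM was 10300 ± 486 (SD, n = 3) in knockout and 8900 ± 2550 (SD, n = 3) in control livers. Without control replicate 2 the control mean was also 10300 CPM. Control replicates 1 and 3 lay within or beside the knockout range, so that the lower control mean came from 1 library.

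No member passed the test between knockout and control. In the quasi-likelihood test of edgeR, adjusted over 13197 genes by the Benjamini-Hochberg method, 0 of the 45 tested members and 0 of all genes (0%) were called at an adjusted p under 0.05. Among the members its lowest value was 0.381. With DESeq2, 0 members were called where 118 genes (0.894%) were. At an unadjusted p under 0.05 in edgeR there were 2 members, Ugt1a7c and Sult5a1, both higher in knockout, against 10.8% of all genes (3.75% higher and 7% lower). The other 4 members (Sult2a1, Sult2a2, Sult2b1 and Ugt1a10) had too few counts to be tested.

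The fold changes of the tested members lay mostly above 0, with 38 above and 7 below. The median log2 fold change, knockout minus control, was 0.24, against 0.0083 for all genes tested, of which 48.8% lay below 0. The values ran from -0.60 to 1.51. The count in each direction depended on the scaling: with library totals alone it was 27 above and 18 below, and on log2(TPM + 1) it was 25 above and 20 below. These scalings moved the median of all genes to -0.21 and -0.20 and that of the members to 0.066 and 0.040, so the members stood above the median of all genes by a similar amount in each.

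The offset was smaller once 1 control library was left out. Control replicate 2 held the lowest value of the 6 libraries in 32 of the 45 tested members, whereas it was lowest in 26.1% of all genes. In that library the median member deviated by -0.75 on the log2 scale from its mean over the other 5. For each of the remaining libraries the value, again against the other 5, was 0.091 to 0.25. Without control replicate 2, the median log2 fold change of the members was 0.047, with 29 above 0 and 16 below. Of the members that had been above 0, 9 moved below it. On plain library totals, the summed CPM of the 6 hepatocyte markers was also lowest in control replicate 2, at 84300 against 108000 to 130000 elsewhere. No marker was at 0 in all libraries. The sum of the pericentral hepatocyte markers was lowest in the same library, at 4230 against 9710 to 15200. The part of these differences in the member values was not tested.

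**Figure D2:**
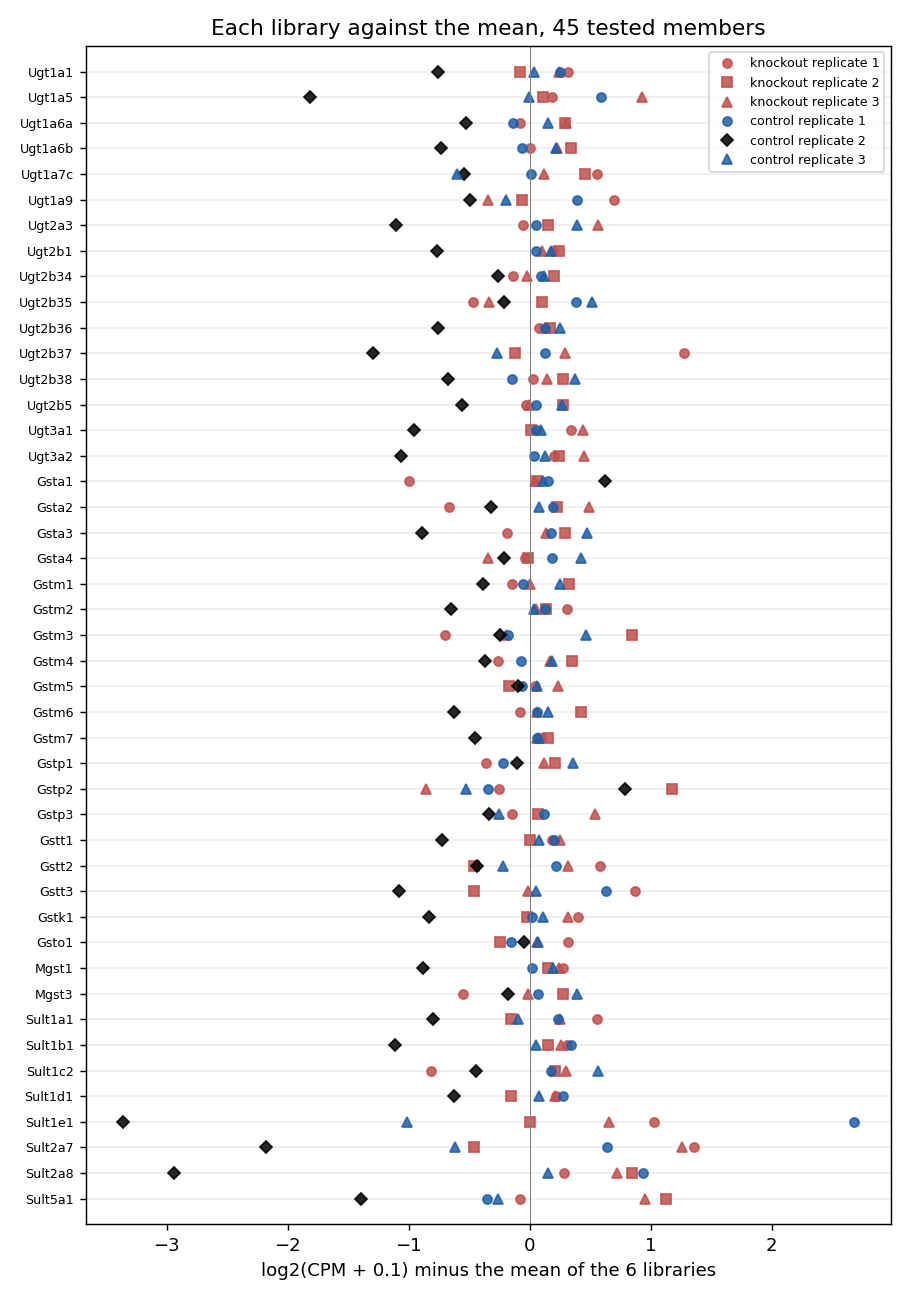
Each row is 1 of the 45 tested members, grouped by family, and each point is a library's log2(CPM + 0.1) minus the mean of the 6 libraries for that gene. Control replicate 2 (black diamonds) is the lowest point in 32 rows, while the other control libraries lie among the knockout libraries.

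**Figure D3:**
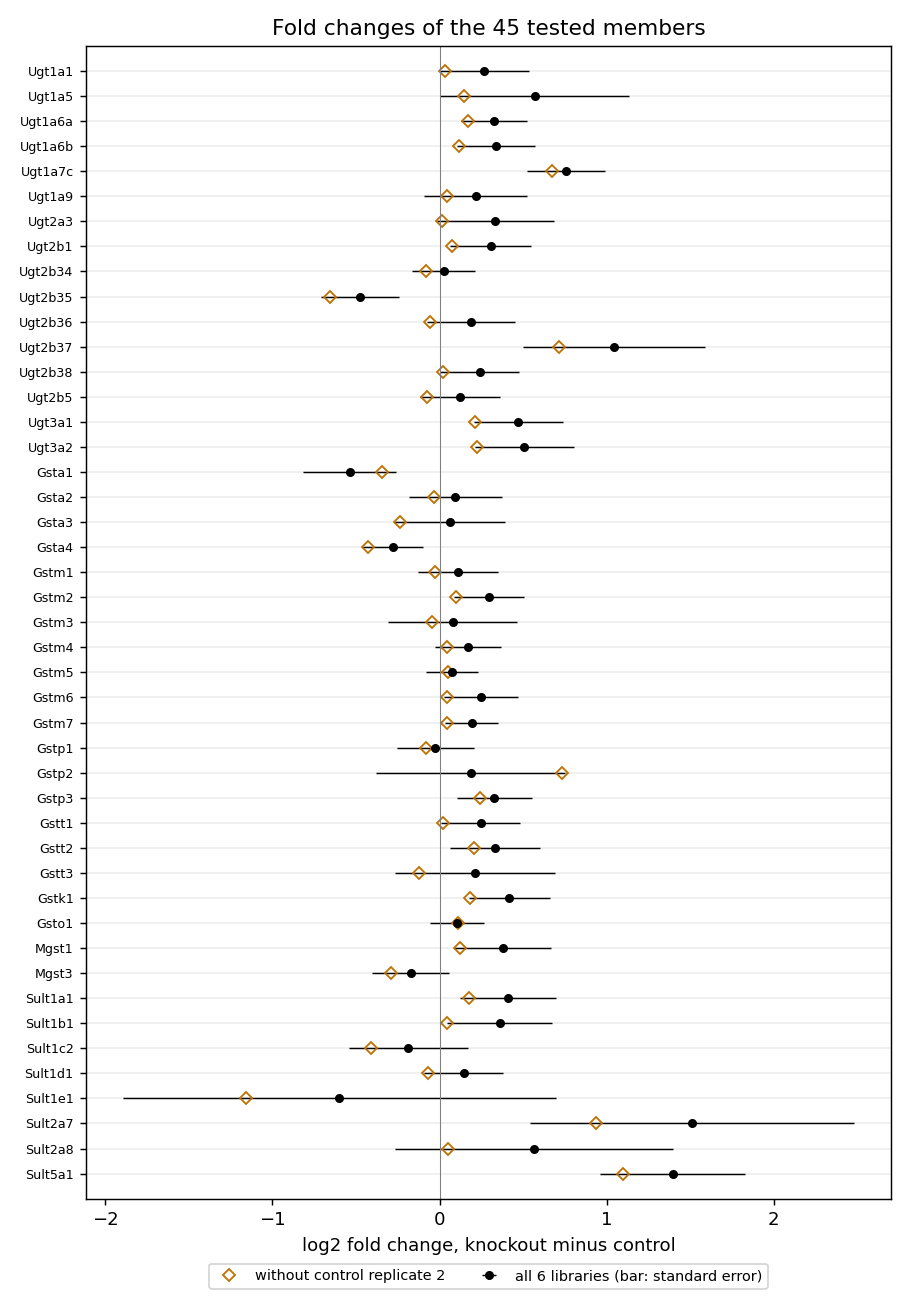
Points give the log2 fold change (knockout minus control) of each tested member with its standard error, and open diamonds the value in the fit without control replicate 2. Most points lie to the right of 0, at a median of 0.24, and most diamonds lie nearer to 0, at a median of 0.047.

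Among the UGT genes, 15 of the 16 tested had a log2 fold change above 0, with a median of 0.31. Without control replicate 2 the median was 0.060, with 12 above 0 and 4 below. Of the Ugt1a genes, all 6 tested members lay above 0 both with all libraries (median 0.33) and without control replicate 2 (median 0.13), and 5 of 6 did on log2(TPM + 1). Their highest gene, Ugt1a1, stood at 598, 456 and 570 CPM in knockout and 573, 284 and 494 CPM in control replicates 1 to 3. Only control replicate 2 lay below the knockout range (log2 fold change 0.27, SE 0.27; 0.030 without that library).

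Ugt1a7c (ENSMUSG00000090124, GRCm38 chr1:88095062-88220002) had the smallest p of all members. Its values were 9.52, 8.89 and 6.98 CPM in knockout replicates 1 to 3 and 6.47, 4.38 and 4.20 CPM in control replicates 1 to 3. The groups did not overlap, which held for 16.4% of all genes tested. Its log2 fold change was 0.76 (SE 0.23; edgeR adjusted p = 0.381). This is a low-level gene of the locus, at 86 to 179 counts per library, and it shared 53.7% of its windows with the others. Summing the whole Ugt1a locus gave 932, 829 and 953 CPM in knockout and 896, 474 and 831 CPM in control, a log2 fold change of 0.30 (SE 0.26; edgeR adjusted p = 0.689). A test of the difference between Ugt1a7c and the locus was not made.

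Each Ugt1a gene starts at a first exon of its own, so its promoter is the sequence that sets it apart from its neighbours. The 250 bases before the start of Ugt1a7c (chr1:88094751-88095000, + strand) and of Ugt1a1 (chr1:88211709-88211958, + strand) are printed from RefSeq on GRCm38.p6, 5′ to 3′.
Ugt1a7c: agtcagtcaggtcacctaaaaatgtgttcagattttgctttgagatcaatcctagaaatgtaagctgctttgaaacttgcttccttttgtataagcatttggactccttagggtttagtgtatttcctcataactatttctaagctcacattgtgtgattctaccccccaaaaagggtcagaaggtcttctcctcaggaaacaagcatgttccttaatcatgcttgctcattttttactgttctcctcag
Ugt1a1: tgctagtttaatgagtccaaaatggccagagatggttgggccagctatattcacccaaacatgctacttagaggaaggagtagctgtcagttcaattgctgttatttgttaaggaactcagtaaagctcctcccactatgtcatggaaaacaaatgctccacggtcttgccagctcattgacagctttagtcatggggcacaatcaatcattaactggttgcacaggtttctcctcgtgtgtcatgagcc
Neither holds TGACNNNGC, the core of the antioxidant response element bound by Nrf2, nor GCGTG, the core of the element bound by the aryl hydrocarbon receptor, on either strand, and no capitals are therefore shown. The closing letters of the first motif can overlap the opening letters of the second.

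Over the 42 members with an entry in the promoter table, the same motifs were sought in the 250 bases before the start. TGACNNNGC was present in 4 of 52 member promoters (7.69%; Gsta3, Gstm5, Gstm7 and Mgst1) and in 10.2% of all 32851 promoters. GCGTG was present in 11 of 52 (21.2%) and in 28.2% of all promoters. A match describes the letters in this window only.

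The Ugt2 genes, which conjugate steroids and bile acids among other substrates, had 7 of 8 members above 0 with all libraries (median 0.21), but 4 above and 4 below both without control replicate 2 (median -0.020) and on log2(TPM + 1). On log2(TPM + 1) the Ugt2 median lay 0.22 above that of all genes. Ugt2b5, the highest of them, stood at 509, 630 and 518 CPM in knockout and 541, 354 and 627 CPM in control replicates 1 to 3. Its log2 fold change of 0.12 (SE 0.24) was -0.057 with library totals alone and -0.073 without control replicate 2. Summed with its near-copies Ugt2b37 and Ugt2b38 it gave 0.13 (SE 0.24).

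Ugt2b35 (ENSMUSG00000035811, GRCm38 chr5:87000860-87013275) was the only UGT gene with a value below 0. It stood at 159, 235 and 174 CPM in knockout replicates 1 to 3 and at 287, 190 and 314 CPM in control replicates 1 to 3. Here control replicate 2 lay inside the knockout range and the other controls above it. The log2 fold change was -0.48 (SE 0.23; edgeR adjusted p = 0.507), and it was -0.66 without control replicate 2. Ugt2b37 lay at the other end of the family, at 3.03, 1.09 and 1.48 CPM against 1.31, 0.429 and 0.976 CPM, with overlap (log2 fold change 1.05, SE 0.55), on 9 to 57 counts per library.

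Both Ugt3a genes, whose enzymes use sugar donors other than UDP-glucuronic acid, were above 0 under every setting tried. Ugt3a2 (ENSMUSG00000049152, GRCm38 chr15:9335550-9370955) stood at 414, 425 and 491 CPM in knockout replicates 1 to 3 and at 369, 172 and 394 CPM in control replicates 1 to 3. All of the knockout values lay above all of the control values. The log2 fold change was 0.51 (SE 0.30; edgeR adjusted p = 0.563), and without control replicate 2 it was 0.22. Ugt3a1, with 93.2% identical coding bases, stood at 96.2, 76.2 and 103 CPM against 78.6, 39.1 and 80.9 CPM, with overlap (log2 fold change 0.47, SE 0.27; 0.21 without control replicate 2). Their sum had a log2 fold change of 0.50 (SE 0.30; edgeR adjusted p = 0.566).

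The GST genes lay closer to 0, with a median log2 fold change of 0.17 and 17 of 21 above 0. Without control replicate 2 the median was 0.047, with 12 above and 9 below. The direction also differed under other scalings: with library totals alone 9 lay above and 12 below, and on log2(TPM + 1) 8 above and 13 below. The median of all genes was itself -0.21 and -0.20 in these settings, and the GST median stayed above it by 0.13 and 0.12. The mu-class Gstm genes had all 7 members between 0.075 and 0.30 under TMM scaling (median 0.17), but 5 of 7 above 0 without control replicate 2 (median 0.047) and 3 of 7 with library totals. Gstm1, the highest, stood at 1178, 1640 and 1310 CPM in knockout and 1260, 1000 and 1558 CPM in control replicates 1 to 3, with wide overlap (log2 fold change 0.11, SE 0.24; -0.077 with library totals alone and -0.027 without control replicate 2).

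With TMM scaling and all libraries, the alpha class was the only GST family with a median below 0, at -0.11 with 2 members above and 2 below. All 4 were below 0 without control replicate 2, with library totals alone and on log2(TPM + 1). With library totals and on log2(TPM + 1) the median of all genes itself lay below 0. Relative to the median of all genes, the alpha-class median stood at -0.12 in the main fit. It stood at -0.305 without control replicate 2, at -0.075 with library totals and at -0.16 on log2(TPM + 1). Gsta1 (ENSMUSG00000074183, GRCm38 chr9:78230656-78242684) stood at 13.6, 28.3 and 28.0 CPM in knockout replicates 1 to 3 and at 30.2, 42.0 and 29.2 CPM in control replicates 1 to 3. It was the only member whose knockout values all lay below its control values, and the only tested member with its highest value in control replicate 2. The difference was -0.54 on the log2 scale (SE 0.28; edgeR adjusted p = 0.525), with knockout replicate 1 far below the others. Leaving out control replicate 2 gave -0.35, and leaving out knockout replicate 1 gave -0.26.

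Its near-copy Gsta2 showed another order, at 32.3, 60.1 and 72.2 CPM in knockout and 58.8, 41.1 and 54.2 CPM in control replicates 1 to 3 (log2 fold change 0.095, SE 0.28; -0.034 without control replicate 2). In both genes knockout replicate 1 was the lowest library. The sum of both, which does not depend on how reads were divided between them, was 45.9, 88.5 and 100.2 CPM against 89.0, 83.0 and 83.4 CPM. On the sum the groups overlapped, control replicate 2 no longer stood apart, and the log2 fold change was -0.12 (SE 0.26; edgeR adjusted p = 0.873). The separation seen in Gsta1 alone was therefore not present in the pair. Gsta5, which shares 98.5% of its aligned coding bases with Gsta2, had 10.37 estimated counts over all libraries, lay under the count minimum and was not in the sum.

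The promoters of this pair are printed to show how the genes differ outside the coding part, as the 250 bases before the start of Gsta1 (chr9:78230419-78230668, + strand) and Gsta2 (chr9:78347146-78347395, - strand), from RefSeq on GRCm38.p6 and 5′ to 3′ on the strand of the gene. The start is that of the RefSeq table; GENCODE M21 gives Gsta2 a longer span (chr9:78331018-78355788), inside which this stretch lies. Capitals mark GCGTG.
Gsta1: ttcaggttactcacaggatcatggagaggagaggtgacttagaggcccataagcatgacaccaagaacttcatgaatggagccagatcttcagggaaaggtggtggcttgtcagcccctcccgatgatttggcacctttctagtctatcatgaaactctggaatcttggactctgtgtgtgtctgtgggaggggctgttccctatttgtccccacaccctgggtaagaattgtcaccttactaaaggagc
Gsta2: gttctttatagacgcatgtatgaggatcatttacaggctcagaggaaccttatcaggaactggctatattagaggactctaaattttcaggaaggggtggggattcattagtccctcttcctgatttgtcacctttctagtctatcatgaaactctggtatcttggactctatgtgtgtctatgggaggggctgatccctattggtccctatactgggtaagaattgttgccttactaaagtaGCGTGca
GCGTG occurs once in the Gsta2 stretch and not in the Gsta1 stretch. In the window of 300 bases, which adds 50 bases after the start, each gene holds 1 GCGTG, and neither holds TGACNNNGC.

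Gsta4, which conjugates the lipid peroxidation product 4-hydroxynonenal, stood at 75.5, 76.5 and 60.8 CPM in knockout and 88.0, 66.6 and 103.9 CPM in control replicates 1 to 3. Control replicate 2 was again inside the knockout range and the other controls above it, with a log2 fold change of -0.28 (SE 0.18) and of -0.43 without that library. Gsta3, the highest alpha-class gene, was at 600.4, 838 and 752 CPM against 775, 369 and 954 CPM. The control libraries bracketed all of the knockout libraries (log2 fold change 0.062, SE 0.33; -0.24 without control replicate 2).

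The remaining GST families held no separated gene. Gstp1 stood at 357, 529 and 499 CPM in knockout and 394, 428 and 587 CPM in control replicates 1 to 3, a log2 fold change of -0.024 (SE 0.23). Its near-copy Gstp2, at 2.31 to 9.75 CPM, was far lower, and the sum of both had a log2 fold change of -0.022 (SE 0.23). Gstk1, a transferase of mitochondria and peroxisomes, was at 80.0, 59.8 and 75.3 CPM against 61.6, 34.0 and 65.6 CPM (log2 fold change 0.42, SE 0.24; 0.18 without control replicate 2). It was the GST gene furthest above 0, and again only control replicate 2 lay below the knockout range.

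Mgst1, which carried the most TPM of all members, stood at 2335, 2133 and 2277 CPM in knockout and 1951, 1043 and 2200 CPM in control replicates 1 to 3. The knockout libraries lay close together, and the control mean was set by replicate 2 (log2 fold change 0.38, SE 0.29; 0.12 without that library). Mgst3 was at 16.9, 30.0 and 24.5 CPM against 26.0, 21.8 and 32.5 CPM, with overlap (log2 fold change -0.17, SE 0.23; -0.29 without control replicate 2). Gstt1, a theta-class enzyme that acts on small halogenated compounds, was at 171, 152 and 180 CPM against 174, 91.4 and 160 CPM (log2 fold change 0.25, SE 0.23). Without control replicate 2 its value was 0.018.

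The SULT genes had the widest range of fold changes of the 3 classes, with 6 of 8 tested members above 0 and a median log2 fold change of 0.38, which was 0.046 with 5 of 8 above 0 when control replicate 2 was left out. Sult5a1 (ENSMUSG00000000739, GRCm38 chr8:123140192-123158315) stood at 2.29, 5.39 and 4.78 CPM in knockout replicates 1 to 3 and at 1.87, 0.857 and 2.00 CPM in control replicates 1 to 3. The groups did not overlap, and knockout replicate 1 lay next to the controls. This gave a log2 fold change of 1.40 (SE 0.43; edgeR adjusted p = 0.381), or of 1.10 without control replicate 2. It shared no window with another member, and its counts were 18 to 94 per library.

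Sult1a1 stood at 508, 310 and 409 CPM in knockout and 404, 198 and 323 CPM in control replicates 1 to 3, with overlap (log2 fold change 0.41, SE 0.29; 0.18 without control replicate 2). Sult1c2 was at 2.93, 6.02 and 6.43 CPM against 5.91, 3.81 and 7.76 CPM, also with overlap (log2 fold change -0.19, SE 0.36; -0.41 without control replicate 2). Neither difference was separated from the spread between libraries.

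A pair of SULT genes differed far more between animals of 1 group than between the groups. Sult1e1, the estrogen sulfotransferase, stood at 16.97, 8.32 and 13.1 CPM in knockout and 53.6, 0.714 and 4.05 CPM in control replicates 1 to 3. The highest and the lowest library were both controls, 75.0 times apart, on 1061 and 15 counts. The log2 fold change of -0.60 had an SE of 1.295, and it was 2.44 without control replicate 1. Sult2a8, which sulfates bile acids in mouse liver, was at 149.7, 221 and 204 CPM against 236, 15.9 and 136 CPM. Its control libraries were 14.8 times apart, and the log2 fold change was 0.57 (SE 0.83). It was 0.048 without control replicate 2 and 1.34 without control replicate 1. Over the 43 members with at least 10 counts in every library, the median ratio of the highest to the lowest library was 1.87 within control and 1.40 within knockout, and the control ratio was the wider one in 30 members. The control ratio includes control replicate 2, the lowest library in 32 of the 45 tested members.

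**Figure D4:**
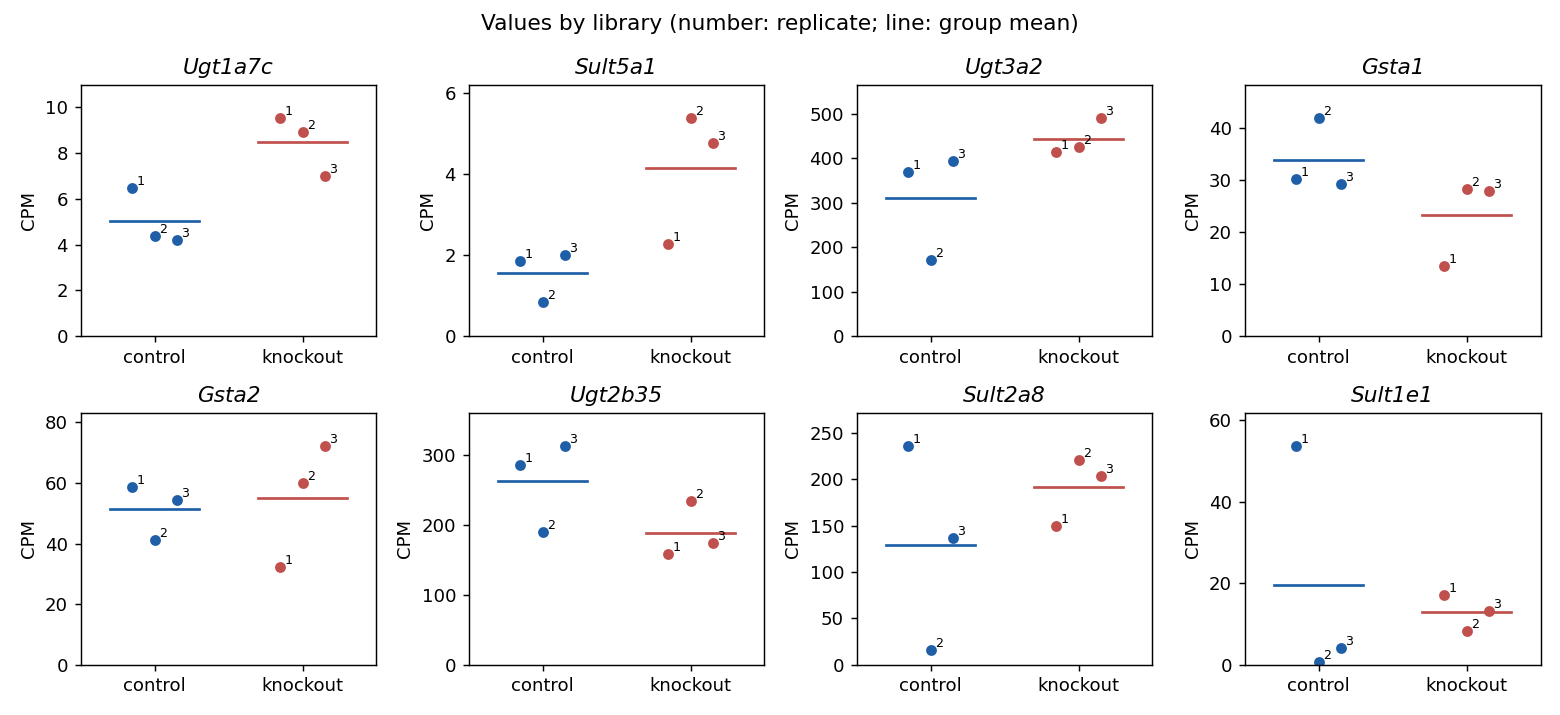
CPM by library for 8 members, with the replicate number beside each point and a line at the group mean; each vertical axis starts at 0. Ugt1a7c, Sult5a1 and Ugt3a2 are higher in all knockout libraries and Gsta1 is lower, whereas Gsta2, Ugt2b35, Sult2a8 and Sult1e1 overlap.

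Counted over all tested members, 4 of 45 had groups that did not overlap (Sult5a1, Ugt1a7c and Ugt3a2 higher, Gsta1 lower), against 16.4% of all genes (7.25% higher and 9.14% lower). Without control replicate 2 there were 6, with Gsta4 and Ugt2b35 added on the lower side, against 24.9% of all genes for 3 against 2 libraries. Both counts are below the share for all genes. The direction was also unstable: 17 of the 45 changed sign in at least 1 of the 6 fits without a library, among them Mgst3, Ugt2b36 and Ugt1a9, and 28 did not.

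The genes around the enzymes were read from lists of cofactor supply, regulators and export. In edgeR no gene of these lists was called. Of the 6 genes of the glucuronic acid list, which also holds the beta-glucuronidase Gusb, 3 lay above and 3 below 0 (median log2 fold change 0.018). The smallest p values were those of Slc35d1 and Slc35b1, both of the Slc35 transporter family, at -0.26 and 0.31. Of the 11 genes tested of the sulfate list, which also holds the sulfatase Sts, 7 lay above and 4 below (median 0.12). The phosphatase Bpnt2 was at -0.39 and the sulfate carrier Slc26a1 at 0.58.

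Of the 12 glutathione genes tested, 7 lay above and 5 below 0 (median log2 fold change 0.054). Gclc, the catalytic subunit of the rate-limiting enzyme of glutathione synthesis, stood at 194, 243 and 186 CPM in knockout and 337, 299.9 and 431 CPM in control replicates 1 to 3. The groups did not overlap, and control replicate 2 lay with the other controls. The log2 fold change was -0.78 (SE 0.20; adjusted p = 0.367 in edgeR and 0.0160 in DESeq2). Its regulatory partner Gclm had a log2 fold change of -0.0024 (SE 0.17), and the glutathione-degrading Ggt6 one of 0.41.

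The list of transcription factors of xenobiotic genes also holds Keap1, the repressor of Nrf2. Of its 15 tested genes, 12 lay above and 3 below 0 (median log2 fold change 0.24). Cebpa, a factor of hepatocyte differentiation, stood at 276, 206 and 348 CPM in knockout and 149, 118 and 170.0 CPM in control, with no overlap (log2 fold change 0.92, SE 0.23; adjusted p = 0.367 in edgeR and 0.0153 in DESeq2). Nr1i2, the pregnane X receptor, which induces UGT, GST and SULT genes, was at 65.8, 57.4 and 61.8 CPM against 47.5, 46.9 and 42.2 CPM (log2 fold change 0.44, SE 0.12; adjusted p = 0.367 in edgeR and 0.105 in DESeq2). Here control replicate 2 did not stand apart from the other controls, unlike in most of the enzymes. Of the 16 genes known as targets of such factors, 7 lay above and 9 below (median -0.081), with Cyp3a13 at 0.68 and Gclc again below.

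The other conjugating and hydrolytic enzymes had 13 of 17 genes above 0 (median log2 fold change 0.35), and those with the smallest p were the nicotinamide methyltransferase Nnmt at 0.78 and the acyl-CoA synthetase Acsm1 at 0.71. The transporters that export conjugates or take up their precursors had 8 of 12 above 0 (median 0.059), with the efflux pumps Abcb1a at -0.61 and Abcc6 at 0.48. Marker sums, on plain library totals, differed beside these values. Sums with TMM scaling were not computed. Of the 6 hepatocyte markers 5 lay above 0, with sums of 114000 to 130000 CPM in knockout and 84300 to 115000 CPM in control. As single genes with TMM scaling, 2 of them did not overlap between the groups, Alb higher and Tat lower in knockout. Of the 7 cholangiocyte markers 7 lay below 0, with sums of 238 to 530 CPM in knockout and 518 to 1600 CPM in control. The 4 proliferation markers all lay below 0 (median log2 fold change -1.26), with sums of at most 35.2 CPM in knockout and of 39.5 to 123 CPM in control. Of the 7 Kupffer cell and macrophage markers 6 lay above 0 (median 0.63), with sums of 682 to 916 CPM in knockout and 462 to 802 CPM in control. Of the 5 T and natural killer cell markers 4 lay above 0 (median 0.42), with sums of 8.41 to 18.9 CPM against 6.66 to 11.0 CPM. In DESeq2 1 gene each of the cholangiocyte (Cftr), proliferation (Ccnb1) and T and natural killer cell (Cd8a) lists was called, and in edgeR none was. Their part in the values of the enzymes was not tested.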

How the data were processed

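Liver RNA was sequenced from 3 knockout and 3 control mice, separate animals per the labels. The authors deposited 1 table with estimated counts and TPM per gene, made on mm10/GRCm38. The submitters' processing notes name RSEM 1.3.3, HISAT2 2.2.1, DESeq2 1.38.3 and fastp 0.23.2 without their order. Annotation release and strand setting: not given in the sources used here. The deposited estimated counts (6.93% of values not whole) were rounded. The comparison used edgeR 4.0.16 in R 4.3.3 (quasi-likelihood, robust, TMM, filterByExpr) with Benjamini-Hochberg adjustment at 0.05 over 13197 genes. The code was tested on simulated data. Each SE was the log2 fold change divided by the root of its F value. The deposited TPM values served for levels and for limma 3.58.1 on log2(TPM + 1) and log2(TPM + 0.1).

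The alternatives were DESeq2 1.42.0, limma-voom, changed scaling or filter, the replicate number as a block, fits lacking 1 library, and summed paralogues. Voom with library weights and summing by coding identity (at least 90%) were added after seeing the data. The members and lists were chosen with earlier results of these data known. Named genes are the 6 members with the smallest p in each direction, the member with the highest TPM of each family, 3 examples of changed direction, the 2 genes with the smallest p of each list, and Sting1; other genes were named for shared sequence, motifs, low counts or their values, after these were seen. Positions and coding sequences came from GENCODE M21 (all 49 members found) and promoters from RefSeq (42 of 49). No 2 libraries of a group were repeats of each other.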

Additional observations from a re-analysis of the deposited data

How the results depend on the processing

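No member was called under any alternative. The count of all genes called was 0 in the main analysis, 118 with DESeq2, 5 with the replicate block, and 0 to 2 when 1 library was left out (2 without control replicate 2, and again 2 without control replicate 3). The median log2 fold change of the members stayed above 0 throughout, from 0.047 (without control replicate 2) to 0.37 (without control replicate 1) with 1 library left out, at 0.25 with DESeq2, 0.29 with limma-voom, 0.11 with library weights and 0.040 on log2(TPM + 1).

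Directions changed in these named members. The median of all genes was itself -0.21 with library totals alone, -0.20 on log2(TPM + 1) and -0.23 on log2(TPM + 0.1). Gsta3, Gstm1 and Ugt2b5 lay above that median in each of these settings. With library totals alone the log2 fold change was -0.096 for Gsta3, -0.077 for Gstm1 and -0.057 for Ugt2b5. On log2(TPM + 1) and log2(TPM + 0.1) it was -0.081 and -0.081 for Gsta3, -0.12 and -0.12 for Gstm1, -0.087 and -0.087 for Ugt2b5, and 0.69 and 0.92 for Sult1e1. With 1 library left out it ran from -0.24 (without control replicate 2) to 0.36 for Gsta3, from -0.030 (without knockout replicate 2) to 0.29 for Gstm1, from -0.073 (without control replicate 2) to 0.31 for Ugt2b5, from -0.13 to 0.17 (without control replicate 3) for Gstp1, from -0.37 to 0.028 (without knockout replicate 1) for Mgst3, from -0.41 to 0.10 (without knockout replicate 1) for Sult1c2, and from -1.16 to 2.44 (without control replicate 1) for Sult1e1. Sult1e1 was at 1.23 with limma-voom, at 0.89 with the replicate block and at 0.053 with library weights, which also put Gsta3 at -0.065. The cause was not tested.

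Same-numbered libraries of the groups correlated at 0.12, -0.0068 and 0.13 in their deviations, and differently numbered ones at -0.28 to 0.18. With 3 libraries per group, these values cannot show whether the replicate numbers pair the mice. With the replicate block the member median was 0.30, against 0.0078 for all genes tested. Summing by a protein table was not run. The size of difference that these libraries could show was not tested, and the members with the fewest counts are the least precise.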

Other observations

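The untested sulfotransferases Sult2a1 and Sult2a2, which act on steroids and bile acids, had most of their few counts in control replicate 2. Sult2a2 had 6, 4 and 17 counts in the knockout libraries (replicates 1 to 3) and 9, 117 and 3 in the control libraries. Sult2a1 had 0, 0 and 2 counts against 3, 25 and 0. In the same library Cyp2a4, a cytochrome P450 that is higher in female mouse liver, stood at 135 CPM against 4.59 to 16.9 CPM elsewhere. On plain library totals, the summed male-biased hepatocyte genes stood there at 2910 CPM against 5790 to 11000 CPM. The Y-linked genes Ddx3y, Uty, Kdm5d and Eif2s3y were read in all 6 libraries, with Ddx3y at 49.96 CPM in control replicate 2 and at 30.1 to 62.5 CPM in the others. Sult2a1 shares 29.5% of its 50-base windows with Sult2a2, and Sult2a2 shares 41.3% of its own with Sult2a1. The division of counts between them is therefore uncertain. Control replicate 2 was thus not low for every member: it was lowest for Sult2a8, Sult1e1 and Sult2a7 and highest for Sult2a1, Sult2a2, Sult2b1 and Gsta1.

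The direction of the class as a whole depended on what it was counted against. Per 100 counts of Alb, the members had 9.15, 10.5 and 8.81 counts in knockout livers against 11.0, 10.9 and 11.0 in control livers, without overlap and with control replicate 2 among the other controls. By class, the groups did not overlap for UGT (3.16, 3.55 and 3.06 against 3.90, 3.73 and 3.74) but did for GST (5.14, 6.24 and 5.02 against 6.07, 6.58 and 6.55) and SULT (0.849, 0.714 and 0.731 against 1.04, 0.627 and 0.683). Per 100 counts of the 6 hepatocyte markers they had 7.67, 8.85 and 7.38 against 9.26, 8.96 and 9.14. The ratios were chosen after the values were seen and no test was run on them. Gene by gene, 6 of 45 members (13.3%) were lower relative to Alb in all knockout libraries than in any control library, against 30.4% of 13220 genes, a smaller share among the members than among all genes. The opposite held for 1 member (2.22%) against 0.408% of all genes. The log2 fold change of Alb itself was 0.42 (SE 0.30).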
